A study of Sus scrofa with 5 samples.

Results

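Embryonic stem-like (ES-like) cells of the pig were set against parthenogenetic pig blastocysts (BLs), the embryo stage that pluripotent cell lines are made from, by the miRNAs in their small RNA libraries. The reads of each mature miRNA were summed over its precursors and divided by the miRNA total of the library, which gives RPM, the usual scale for depth. A miRNA was kept if it had at least 10 reads in ES-like cells or in the deeper blastocyst library, BL_2. Of 411 mature miRNAs listed, 293 were kept. They held all but a small remainder of the reads of reported (miRBase) miRNAs in each library.

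The study sequenced small RNA of BLs, ES-like cells, porcine embryoid bodies (PEBs) made from ES-like cells, and pig fetal fibroblasts (PFFs). The 2 BL libraries were pools of day 7 embryos made by electrical activation of unfertilised oocytes, with no paternal genome, and cultured in PZM3 with serum added on the way. A blastocyst pool holds trophectoderm as well as inner cell mass. ES-like cells were a cell line grown with serum, stem cell factor and basic fibroblast growth factor on mitomycin-treated mouse embryonic fibroblasts, and they gave 1 library. The ES-like cells therefore had no replicate, and every ratio below compares libraries. In such bulk samples, fewer cells of a type and less RNA per cell cannot be told apart.

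BL_1 held 113743 miRNA reads, BL_2 2782150 and ES-like cells 6372500. A single read was worth 8.79 RPM in BL_1, 0.359 in BL_2 and 0.157 in ES-like cells. The BL_1 library was thus the limit for low miRNAs, since 80 of the 293 had no read there, against 31 in BL_2 and 4 in ES-like cells. The paper reports that miRNAs made up a far smaller share of small RNAs in both BL libraries than in ES-like cells. It also reports a wide peak of longer reads in BLs in place of the steep peak of cultured cells. RPM, which divides by miRNA totals, does not show this difference between the libraries. Reads at predicted miRNA loci outside miRBase were not part of these totals, and they equalled 33.8% of the BL_1 total, 34.7% of the BL_2 total and 70.1% of the ES-like total. The study's read summary assigns the mature-read totals of ES-like cells and PFFs the other way round from the deposited columns. The column names matched the sample titles, and they were followed here. The epithelial list described below summed to 23263 RPM in the ES-like column and 47.9 RPM in the PFF column.

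A miRNA is cut from one arm of a short hairpin transcript and guides Argonaute to messenger RNAs that pair with its seed, which lowers their translation and stability. Several miRNA families mark early development. The miR-371 and miR-302 clusters are known from early embryos and pluripotent stem cells, the miR-17-92 cluster and its X-linked copy from dividing cells, and let-7 from differentiated cells, where LIN28 no longer blocks its maturation.

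The most abundant miRNA of BLs was nearly absent from ES-like cells. miR-371-5p was counted 36925 times in BL_1, 823927 times in BL_2 and 197 times in ES-like cells, or 324635, 296148 and 30.9 RPM. Its share of the reported miRNA reads was 32.5% in BL_1, 29.6% in BL_2 and only 0.00309% in ES-like cells. It was 10501-fold lower in ES-like cells than in BL_1 (95% interval 9129 to 12142) and 9580-fold lower than in BL_2 (8331 to 11072). These exact binomial intervals, here and below, cover counting error only, and PCR reads are not independent molecules. No other member of the miR-371 cluster list and none of the miR-302 cluster list was named in the table, so no level is given for them here. The identity of the predicted loci, which hold many reads in ES-like cells, was not worked out here.

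Among reported miRNAs, ES-like cells carried a different set of leaders. The 10 most abundant took 79.5% of the reported miRNA reads in BL_1, 80.1% in BL_2 and 63.8% in ES-like cells. BL_1 and BL_2 shared 9 of their 10, whereas ES-like cells shared 3 with BL_2, namely miR-148a-3p, miR-21 and miR-92a. In BLs miR-371-5p was followed among reported miRNAs by miR-378, at 14.3% and 12.9% of reads against 0.701% in ES-like cells. miR-7, known from neurons and pancreatic islets, held 6.76% and 9.28% in BLs and 1.54% in ES-like cells. In ES-like cells the leaders among reported miRNAs were miR-148a-3p with 16.01% of reads, miR-21 with 15.5% and miR-122 with 10.1%. The same miRNAs held 2.22% and 3.27%, 3.86% and 7.00%, and 0.177% and 0.0837% in BL_1 and BL_2. A predicted locus on chromosome 8, outside these totals, had 3980216 reads in ES-like cells, against 1020491 for miR-148a-3p. That locus also had more reads than miR-378 in BL_1 (27970 against 16260) and in BL_2 (497400 against 357514).

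A direction was called when ES-like cells differed from BL_1 and from BL_2 by more than 2-fold the same way. Against a library with 0 reads, a floor of 3 reads was used, so that such a ratio is a lower bound. Of the 293 miRNAs, 112 were higher in ES-like cells (38.2%), 55 were lower (18.8%) and the others had no call. The higher miRNAs took 9.37% of the reported miRNA reads in BL_1, 14.1% in BL_2 and 73.9% in ES-like cells. The lower ones took 69.8%, 66.3% and 4.55%. Counting intervals stayed clear of equal levels in both comparisons for 105 of the 112 and 48 of the 55. In both comparisons, 38 miRNAs were at least 10-fold higher and 23 at least 10-fold lower.

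The filter could be passed on one side alone, as 56 miRNAs did through ES-like cells only and 18 through BL_2 only. Of the 56, 16 were called higher, and of the 18, 12 were called lower. Among the 219 miRNAs with at least 10 reads in both, 96 were higher and 43 lower. Among the 117 with at least 10 reads in all 3 libraries, 42 were higher, 33 lower and 42 not called. Over those 117, the median absolute log2 ratio was 0.46 for the BL pair, 1.83 for ES-like cells over BL_1, and 1.70 for ES-like cells over BL_2. BL_1 and BL_2 lay within 2-fold for 96 of the 117, ES-like cells and BL_1 for 32, and ES-like cells and BL_2 for 40.

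**Figure D1:**
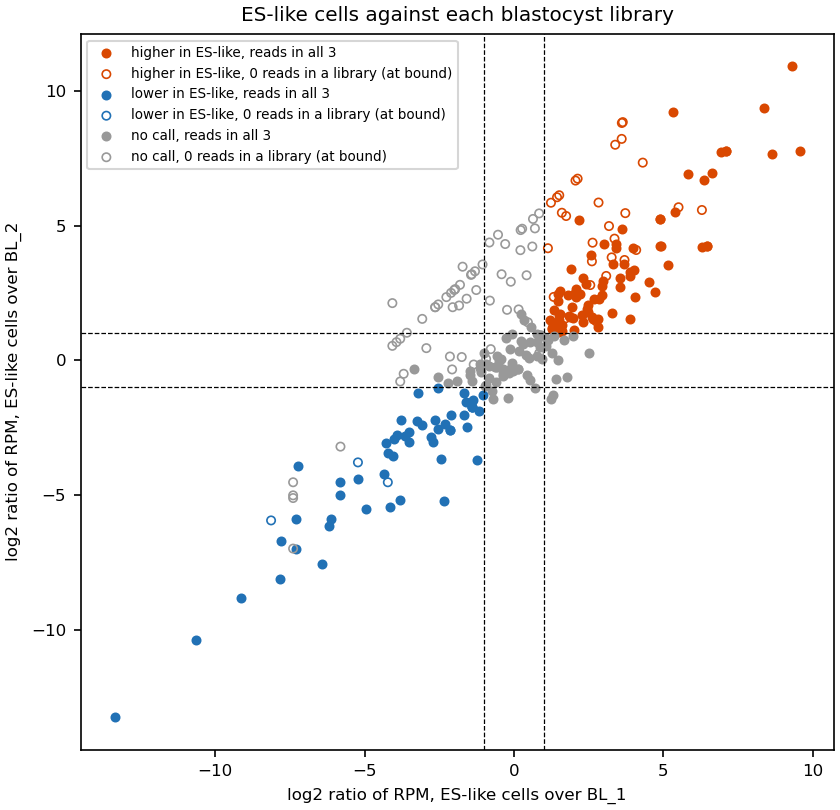
Log2 ratio of RPM in ES-like cells to BL_1 (x axis) and to BL_2 (y axis), 1 point per miRNA, with the 2-fold limits drawn as dashed lines and open points for miRNAs with 0 reads in a library. The 112 miRNAs higher in ES-like cells lie at the upper right and the 55 lower ones at the lower left, with miR-371-5p farthest from the centre.

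The share of higher calls depended on the scale. RPM divides by a total of which miR-371-5p alone held 32.5% in BL_1 and 29.6% in BL_2. With TMM normalization, 77 miRNAs were higher and 70 lower, so that 52.4% of calls were higher in place of 67.1%. All 77 and 55 of the 70 were RPM calls of the same direction. This overlap was fixed by the scale, as TMM lowered every ratio of ES-like cells to BLs. TMM moved the median log2 ratio by -0.69 from its RPM value of 0.95. The shift took 35 higher calls back across the 2-fold line, and it is said below where a miRNA described here was among them.

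The 293 miRNAs were also tested in one fit. edgeR's quasi-likelihood test (TMM, Benjamini-Hochberg adjustment) took its spread from the BL pair and assumed that ES-like cells vary as much. It called 84 miRNAs higher (28.7%), of which 28 had passed the filter through ES-like cells alone, and 56 lower (19.1%), of which 15 had passed through BL_2 alone, with an adjusted p below 0.05, whereas 157 passed 0.05 without adjustment. It called 72 of the 112 higher and 48 of the 55 lower miRNAs, each in the same direction, and 20 miRNAs without a ratio call. The split was even where each library had to have 10 reads, with 37 higher and 37 lower, and DESeq2 gave 55 and 48. Whether the 2 pools came from separate rounds of activation is not given in the sources used here, so these p-values measure only the spread between the pools.

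Several miRNAs that were low in BLs had large ratios on the higher side. miR-452, which in human lies with miR-224 in an intron of GABRE, had 1 read in BL_1, 8 in BL_2 and 35216 in ES-like cells. This was 8.79, 2.88 and 5526 RPM, or 629-fold (113 to 24828) and 1922-fold (975 to 4452) higher. It passed the filter through ES-like cells alone, so its ratios are given without a test. Its neighbour miR-224 had 8, 13 and 17730 reads and was 39.6-fold and 595-fold higher. The ratios of both miRNAs to BL_1 and to BL_2 differed from each other. miR-29a, of a family known to target collagen transcripts, was at 8.79, 17.3 and 3486 RPM and 397-fold (71.2 to 15663) and 202-fold (152 to 274) higher. Its relative miR-29b had no read in BL_1, 7.91 RPM in BL_2 and 163 RPM in ES-like cells, and miR-29c, with 1, 0 and 32 reads, had no call. miR-676-3p had 0, 120 and 13136 reads, at least 78.2-fold higher than BL_1 and 47.8-fold (39.9 to 57.7) higher than BL_2.

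miR-122, the dominant miRNA of hepatocytes, was counted 201, 2328 and 643647 times in BL_1, BL_2 and ES-like cells. It was at 1767 and 837 RPM in BLs and 101004 RPM in ES-like cells, 57.2-fold (49.8 to 66.0) and 121-fold (116 to 125.8) higher, with an edgeR adjusted p of 3.42e-18. It was at 54096 RPM in PEBs and 4.14 RPM in PFFs. Of 5 kept miRNAs on the list of endoderm and liver, 4 were higher and 1 had no call, also with TMM, beside 38.2% and 26.3% higher among all kept miRNAs. miR-192, known from intestine, liver and kidney, was at 167, 507 and 5926 RPM in BL_1, BL_2 and ES-like cells, 35.5-fold and 11.7-fold higher. miR-194a, its neighbour in the genome, was 30.2-fold and 19.1-fold higher. miR-215, which is related to miR-192, had no read in BL_1 and was at 11.9 RPM in BL_2 and 271 RPM in ES-like cells. The list summed to 1961, 1397 and 108003 RPM, most of which was miR-122.

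**Figure D2:**
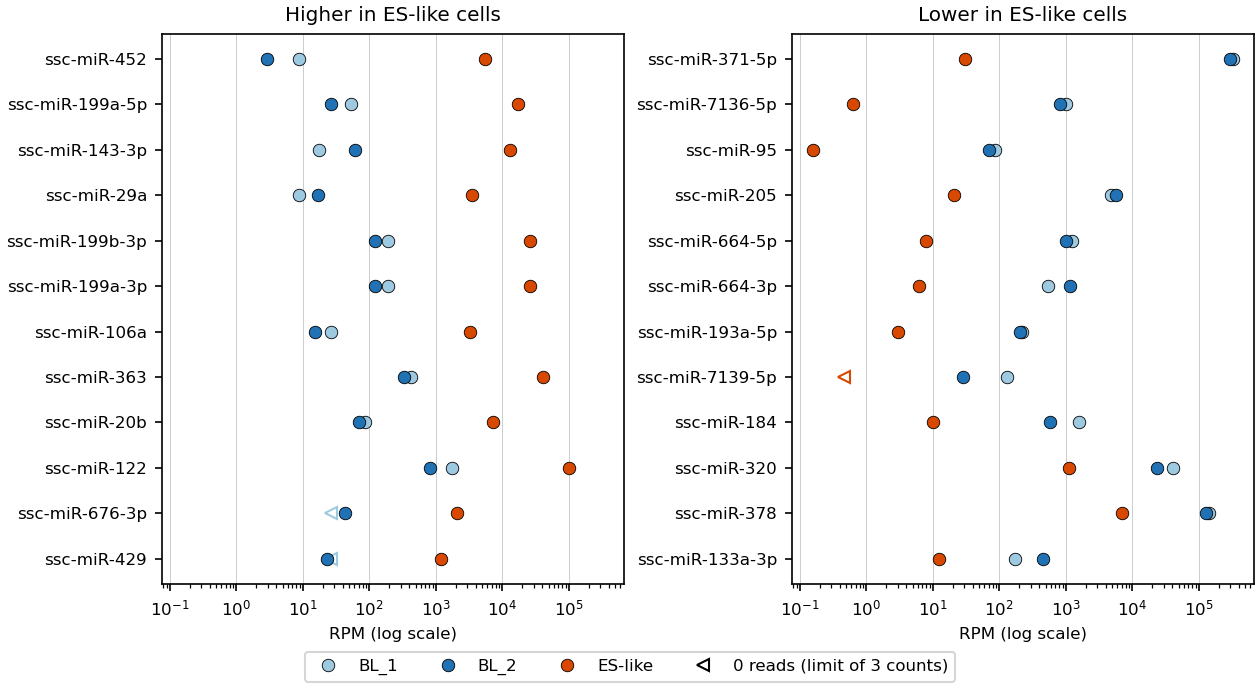
RPM on a log axis of the 12 miRNAs with the largest smaller fold on each side, 1 point per library (BL_1, BL_2 and ES-like cells), with a read count of 0 drawn as an open triangle at the floor of 3 reads. The BL_1 and BL_2 points lie near each other for most miRNAs, and the ES-like points lie to one side of both.

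Most miRNAs of the clusters known from dividing cells were higher in ES-like cells. In the X-linked miR-106a-363 cluster, all 4 kept miRNAs were higher, also with TMM, beside 38.2% and 26.3% of all kept miRNAs. miR-363 had 422, 331 and 41258 RPM in BL_1, BL_2 and ES-like cells, 97.8-fold (73.7 to 133) and 125-fold (117 to 133) higher. It held 4.13% of the reported miRNA reads in ES-like cells. miR-20b was at 87.9, 70.4 and 7277 RPM, 82.8-fold (45.0 to 173) and 103-fold (89.8 to 119) higher. miR-106a was at 26.4, 15.5 and 3246 RPM, 123-fold (42.1 to 597) and 210-fold (156 to 290) higher. miR-18b had no read in either BL library and 700 in ES-like cells, at least 4.16-fold and 101.9-fold higher. miR-18b passed the filter through ES-like cells alone, and edgeR's adjusted p for the other 3 lay between 2e-19 and 6.3e-14. The sum of the cluster was 536 RPM in BL_1, 417 in BL_2 and 51890 in ES-like cells.

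The related miR-17-92 cluster had 6 of 7 kept miRNAs higher, also with TMM, beside the same 38.2% and 26.3%. One of the 6, miR-17-3p with 0, 3 and 735 reads, had passed the filter through ES-like cells alone. miR-20a was at 1670, 2443 and 12970 RPM, 7.76-fold and 5.31-fold higher. miR-17-5p was at 308, 486 and 5000 RPM, 16.2-fold and 10.3-fold higher. miR-19b was 26.6-fold higher than in BL_1 and 5.75-fold higher than in BL_2. The exception was miR-92a, the most abundant of them, at 53937, 47804 and 77449 RPM. Its mean log2 ratio of 0.61 was -0.08 with TMM, and its edgeR adjusted p was 0.90. Because of miR-92a the sum of the cluster was at 56065, 51440 and 100214 RPM, less than 2-fold apart from either BL library, while the median log2 ratio of its members was 3.67.

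let-7 was present in BLs and mostly higher in ES-like cells. Of 9 kept family members, 7 were higher and 2 had no call, and with TMM 5 were higher and 1 was lower. Among all kept miRNAs 38.2% were higher by RPM, and with TMM 26.3% were higher and 23.9% lower. One of the 7, let-7d-3p with 1, 3 and 254 reads, had passed the filter through ES-like cells alone. Of the 5, let-7i had the largest ratio by the smaller of its folds, at 510, 776 and 7534 RPM, 14.8-fold and 9.70-fold higher (edgeR adjusted p = 1.58e-05). let-7f was the most abundant in ES-like cells at 5319, 5511 and 13140 RPM, 2.47-fold and 2.38-fold higher, and the calls of let-7f and let-7g were lost with TMM. let-7a went the other way, at 9390, 4448 and 3359 RPM, and it was 2.80-fold lower than BL_1 but only 1.32-fold lower than BL_2. It was the TMM call on the lower side, and its edgeR adjusted p was 0.0138. As members of this family differ by few bases, reads may be split among them in counting. The family summed to 17390, 12553 and 29188 RPM.

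Most miRNAs known from mesenchymal cells and fibroblasts were higher in ES-like cells. Of 16 kept members of that list, 14 were higher and 2 had no call, and 11 were higher with TMM, beside 38.2% and 26.3% of all kept miRNAs. Of the 14, 4 had passed the filter through ES-like cells alone. miR-199a-5p, from a transcript antisense to a dynamin gene, had 6 reads in BL_1, 74 in BL_2 and 110832 in ES-like cells. It was at 52.8, 26.6 and 17392 RPM, 330-fold (151 to 898) and 654-fold (521 to 833) higher (edgeR adjusted p = 7.01e-24). miR-199a-3p and miR-199b-3p had nearly the same counts, so their reads cannot be told apart, and miR-199a-3p was at 193, 122 and 26516 RPM. miR-143-3p, which with miR-145 is known from smooth muscle and fibroblasts, was at 17.6, 60.4 and 13226 RPM, 752-fold (208 to 6211) and 219-fold (188 to 256) higher. miR-145-5p had 0, 3 and 2043 reads and miR-214 had 0, 2 and 2051.

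A pair of broadly expressed members of the same list differed less. miR-21, abundant in most cultured cells, was at 38578, 69981 and 154848 RPM, 4.01-fold and 2.21-fold higher, a call that was lost with TMM and had an edgeR adjusted p of 0.18. miR-125b was at 967, 1117 and 7530 RPM, 7.79-fold and 6.74-fold higher, with an adjusted p of 0.000877. The sum of the list was 49621 RPM for BL_1, 78377 for BL_2 and 263945 for ES-like cells, against 434891 for PEBs and 804340 for PFFs. Without miR-21 the sums were 11042, 8396, 109096, 246148 and 281532 RPM in the same order, and with the reads shared by miR-199a-3p and miR-199b-3p counted once they were 10849, 8274, 82580, 165728 and 229014 RPM. In BL_1, 5 of the 16 had no read, in BL_2 2 and in ES-like cells 0. ES-like cells were grown on mouse fibroblasts, and many mature miRNAs are alike in mouse and pig. The part of feeder RNA in these values was not tested.

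**Figure D3:**
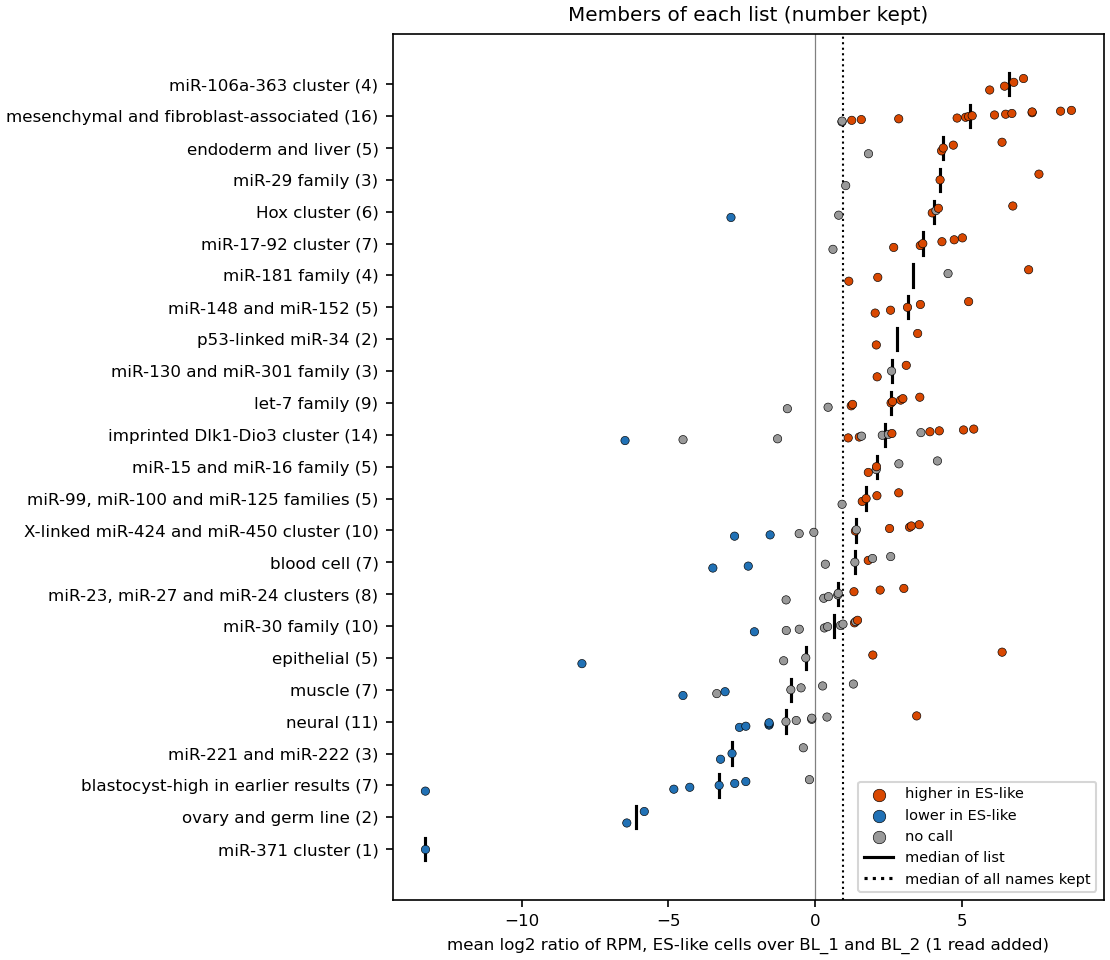
Mean log2 ratio of RPM in ES-like cells over BL_1 and BL_2 (x axis, 1 read added), 1 point per kept miRNA of each list, coloured by its call, with the median of each list as a bar and that of all kept miRNAs, 0.95, as a dotted line. In the mesenchymal list 14 of 16 points and in the miR-106a-363 cluster 4 of 4 are called higher, and in the neural list 5 of 11 are called lower, or 3 of 8 with names of the same counts taken once.

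In the miR-148 and miR-152 list, miR-148a-3p, miR-148b-3p and miR-152 share a seed and are known to target DNMT1. The list also holds the opposite arms miR-148a-5p and miR-148b-5p. All 5 kept members were higher, also with TMM, beside 38.2% and 26.3% of all kept miRNAs. edgeR called 4 of them (miR-148b-5p had an adjusted p of 0.18). miR-148a-3p was at 22155, 32734 and 160140 RPM, 7.23-fold and 4.89-fold higher (edgeR adjusted p = 0.00125). Its opposite arm, miR-148a-5p, was 12.9-fold and 11.9-fold higher at 149, 163 and 1935 RPM. miR-148b-3p was at 123, 403 and 2048 RPM, 16.6-fold and 5.08-fold higher. miR-152 was at 26.4, 24.1 and 1103 RPM, 41.8-fold and 45.8-fold higher. The BL libraries lay close together for both arms of miR-148a, and ES-like cells lay above both.

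Epithelial miRNAs were split. miR-205, an epithelial miRNA that holds down the ZEB repressors, had 540 reads in BL_1, 16007 in BL_2 and 134 in ES-like cells, or 4748, 5753 and 21.03 RPM. It was 226-fold (187 to 275) and 274-fold (231 to 327) lower in ES-like cells (edgeR adjusted p = 1.17e-16). miR-429, of the miR-200 family, which has the same ZEB targets, had 0, 65 and 7638 reads. It was at least 45.4-fold higher than BL_1 and 51.3-fold (40.2 to 66.5) higher than BL_2, with an adjusted p of 6.7e-09. The neighbours miR-183, miR-96-5p and miR-182 differed from each other. miR-96-5p was at 431, 654 and 2098 RPM and was called higher, whereas miR-182 was at 16203, 27137 and 9973 RPM, 1.62-fold and 2.72-fold lower, with no call by RPM and a lower call with TMM. Of the 5 kept members 2 were higher, 1 was lower and 2 had no call, close to the 38.2% and 18.8% of all kept miRNAs.

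miRNAs from the Hox clusters also went both ways. miR-10b was at 28485, 36027 and 4389 RPM, 6.49-fold and 8.21-fold lower in ES-like cells (edgeR adjusted p = 1.2e-06). miR-196a was at 70.3, 61.8 and 1117 RPM, 15.9-fold and 18.1-fold higher. miR-196b-5p had 0, 2 and 2096 reads, and miR-615 had 0, 5 and 510, the latter being a call that was lost with TMM. Of the 6 kept, 3 were higher, 1 was lower and 2 had no call, beside 38.2% and 18.8% of all kept miRNAs, and 2 of the 3 had passed the filter through ES-like cells alone.

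miR-371-5p led the miRNAs lower in ES-like cells, and next by size were less abundant ones. miR-7136-5p was at 1011 and 835 RPM in BLs with 4 reads in ES-like cells, 1611-fold (612 to 6012) and 1330-fold (519 to 4886) lower. miR-95 had 10, 197 and 1 reads and was 560-fold (79.7 to 24314) and 451-fold (80.1 to 17912) lower. miR-664-5p and miR-664-3p, whose hairpin in human overlaps a small nucleolar RNA, were 157-fold and 127-fold, and 86.8-fold and 186-fold lower. miR-193a-5p was at 220, 208 and 2.98 RPM, 73.7-fold and 69.8-fold lower. miR-184, known from cornea and lens, was at 1591, 587 and 10.0 RPM, 158-fold and 58.4-fold lower. miR-7139-5p had 15, 80 and 0 reads, at least 280-fold and 61.1-fold lower. Of these, miR-7136-5p, miR-95 and miR-7139-5p had passed the filter through BL_2 alone.

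Among the abundant miRNAs of BLs, miR-378 was at 142954, 128503 and 7013 RPM, 20.4-fold (20.0 to 20.8) and 18.3-fold (18.1 to 18.5) lower in ES-like cells. It lies in an intron of PPARGC1B in human and mouse. miR-320, which is made without Drosha, was at 41260, 23338 and 1102 RPM, 37.4-fold (36.1 to 38.9) and 21.2-fold (20.7 to 21.7) lower. Their edgeR adjusted p-values were 1.86e-10 and 1.34e-11. miR-7 was at 67591, 92756 and 15411 RPM, 4.39-fold and 6.02-fold lower (adjusted p = 1.36e-05). These belong to a list of 8 miRNAs chosen from earlier results for being high in BLs, of which 7 were kept and 6 were lower. As that choice used these data, the list's count and the p-values given for its members are a description only. miR-30d was at 49761, 46754 and 11498 RPM, 4.33-fold and 4.07-fold lower, while miR-30a-5p and miR-30e-5p were higher by RPM and lost the call with TMM. The median log2 ratio of the 10 kept miR-30 members was 0.64 by RPM and -0.04 with TMM.

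miR-222, known to repress the cell cycle inhibitor p27, was at 2057, 1132 and 164 RPM, 12.6-fold and 6.92-fold lower. Of the muscle list, 2 of 7 kept were lower and none higher, beside 18.8% lower among all kept miRNAs. miR-1 was at 853, 1968 and 155 RPM, 5.50-fold and 12.7-fold lower, and miR-133a-3p at 176, 450 and 12.6 RPM, 14.0-fold (8.13 to 23.1) and 35.8-fold (28.6 to 45.5) lower. Of the neural list, 5 of 11 kept were lower, or 6 with TMM, and 1 was higher. Among all kept miRNAs 18.8% were lower by RPM and 23.9% with TMM, and 38.2% were higher by RPM. With names of the same counts taken once (miR-9, and miR-129a-5p with miR-129b), 3 of 8 were lower. The lower ones were miR-7, miR-129a-3p and 3 names of miR-9 whose counts were equal but for 1 read in ES-like cells, which amount to 1 measurement at 1925, 2429 and 730 RPM. The higher one, miR-138, was at 17.6, 10.4 and 186 RPM. Both arms of miR-202, known from gonads, were lower, with 2, 18 and 0 reads for miR-202-3p and 5, 103 and 4 for miR-202-5p, which were kept through BL_2 alone.

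In the imprinted Dlk1-Dio3 cluster, which is expressed from the maternal chromosome, 7 of 14 kept miRNAs were higher, 1 was lower and 6 had no call, and 3 were higher with TMM. Among all kept miRNAs 38.2% were higher by RPM and 26.3% with TMM, and 7 of the 14 had passed the filter through ES-like cells alone. All of them were at 187 RPM or less in ES-like cells. miR-127 had 0, 9 and 1194 reads, miR-382 had 0, 35 and 1024 and miR-411 had 0, 6 and 563. miR-432-5p was lower, with 1 read in BL_1, 30 in BL_2 and 0 in ES-like cells. miR-493-3p had 0, 15 and 1 reads, which gave no ratio call. Both had passed the filter through BL_2 alone. BL_1 had no read for 11 of the 14, so most of these ratios against BL_1 are bounds.

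Smaller lists can be given by their counts beside the 38.2% higher and 18.8% lower of all kept miRNAs. Of the X-linked miR-424 and miR-450 list, 5 of 10 kept were higher, of which 4 remained with TMM, and 2 were lower. Of the miR-99, miR-100 and miR-125 families 4 of 5 were higher, of which 2 remained with TMM, and of the miR-23, miR-27 and miR-24 list 3 of 8, of which 1 remained. In the miR-181 family 3 of 4 were higher (2 with TMM), 1 of them kept through ES-like cells alone, in the miR-130 and miR-301 family 2 of 3 (2 with TMM), and in the miR-15 and miR-16 family 2 of 5 (1 with TMM). Both kept members of the p53-linked miR-34 list were higher, and 1 with TMM. miR-34c was at 862, 1467 and 12749 RPM, 14.8-fold and 8.69-fold higher. miR-34a was at 70.3, 169 and 492 RPM, 7.00-fold and 2.91-fold higher, a call that was lost with TMM and had an edgeR adjusted p of 0.163. Of 7 kept blood cell miRNAs, 1 was higher (0 with TMM) and 2 were lower, and the list summed to 141, 134 and 171 RPM. Median log2 ratios were above 0 for 18 of the 25 lists with a kept member by RPM and for 17 with TMM, and above the median of all kept miRNAs for 16 by RPM. Some lists share members.

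Several hairpins were also used differently, measured as the share of reads from the 5p arm, which does not depend on the library total. Of 41 hairpins with both arms named and enough reads, the ratio of arms moved by more than 2-fold against both BL libraries in 23, toward 5p in 10 and toward 3p in 13. One of the 13, miR-4334, had no 5p read in any of the 3 libraries and shows no move of its own, which leaves 22. The 22 include miR-199a, called toward 5p, and miR-199b, called toward 3p. Their 3p counts are nearly the same reads, so that neither share is measured on its own. The 5p share of miR-199b fell only against BL_2, from 5.83% there to 0.893% in ES-like cells. Against BL_1, where miR-199b had no 5p read, its shares show no move toward 3p. That part of its call comes from the reads added to each arm. For miR-423, 47.3% of reads were 5p in BL_1 (95% exact binomial interval 45.5 to 49.2), 43.7% in BL_2 (43.2 to 44.1) and 12.5% in ES-like cells (12.3 to 12.7). miR-423-3p itself was at 13372, 9495 and 9867 RPM and had no call, while miR-423-5p was 8.53-fold and 5.23-fold lower. For miR-424, 5.36% (1.12 to 14.9), 8.95% (6.96 to 11.3) and 59.9% (56.4 to 63.3) were 5p. Its 3p arm was lower and its 5p arm higher in ES-like cells, the latter a call that was lost with TMM.

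The 5p share of miR-361 was 8.33% in BL_1, 10.17% in BL_2 and 45.0% in ES-like cells, and that of miR-28 was 12.3%, 9.59% and 34.5%. For miR-221 it was 33.0%, 39.2% and 9.50%, and for miR-92b 28.6%, 20.1% and 7.80%. For these hairpins, the BL intervals and the ES-like interval did not overlap. Of the 13 hairpins called toward 3p, 6 had an arm with 0 reads in a library, so that their size depends on the 0.5 reads added to each arm. Besides miR-4334, miR-199b had no 5p read in BL_1. Its 5p share was 0% there (0 to 15.4) and 0.893% in ES-like cells, so its direction against BL_1 also depends on the added reads. miR-193a, miR-374b and miR-769 had no 3p read in BL_1, and miR-10a had none in either BL library. With 1 read added, the calls of miR-10a and miR-374b were lost, and 20 of the 23 hairpins were called in all.

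**Figure D4:**
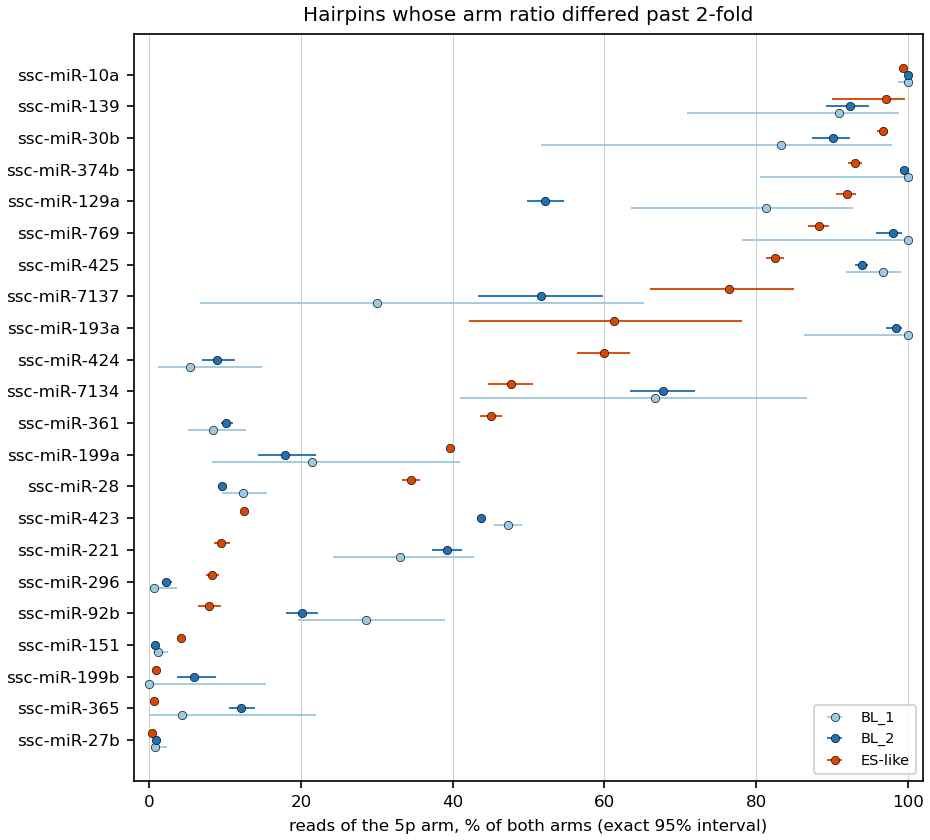
Percent of a hairpin's reads that come from its 5p arm in BL_1, BL_2 and ES-like cells, with 95% exact binomial intervals. The hairpins are those whose arm ratio, with reads added to each arm, moved by more than 2-fold against both BL libraries. miR-424, miR-361 and miR-28 lie further to 5p in ES-like cells, and miR-423 and miR-221 further to 3p.

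Calls were also set out by position. By gene order in RefSeq (Sscrofa11.1, used for order only), 79 kept miRNAs lay in 27 groups of neighbours at most 10000 bases apart. This grouping was chosen after the values were seen. In 14 groups the calls were on the higher side only, in 4 on the lower side only, in 1 on both and in 8 there was none. These calls are by RPM, by which 38.2% of all kept miRNAs were higher and 18.8% lower. Both arms of a hairpin count here as separate names. Groups were not counted with TMM, which removed the call of miR-30e-5p, the only one of its group. A single call made up 6 of the 18 groups with one direction, among them that of miR-183, miR-96-5p and miR-182, and such a group cannot show a disagreement. The 2 genes of miR-143 and miR-145 gave 4 mature miRNAs, all higher by RPM (miR-143-5p lost with TMM). Of these, miR-143-5p, miR-145-3p and miR-145-5p had passed the filter through ES-like cells alone. The 5 names from miR-17 to miR-20a were all higher, with miR-17-3p kept through ES-like cells alone. In contrast, miR-105-1 and miR-105-2 were both lower, with 5, 177 and 9 reads and 8, 20 and 3 reads, and both were kept through BL_2 alone. The group with both directions held miR-127 and miR-136 (lost with TMM) on the higher side and miR-432-5p on the lower. Here miR-127 and miR-136 had passed the filter through ES-like cells alone and miR-432-5p through BL_2 alone.

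Both comparisons share the ES-like library, so their sides are not independent. Of 205 miRNAs with a read in each of the 3 libraries, 15 lay above one BL library and below the other in ES-like cells, and 2 did so by more than 2-fold each way. These were miR-132 and miR-212, neighbours known from neurons, each with 1 read in BL_1. miR-132 was at 8.79, 55.4 and 20.6 RPM and miR-212 at 8.79, 53.2 and 21.7 RPM in BL_1, BL_2 and ES-like cells. miR-23b, with 10 reads in BL_1, was at 87.9, 369 and 232 RPM, above BL_1 and below BL_2. Near the 2-fold line, miR-335 was called higher (lost with TMM) at 8.79, 11.9 and 24.8 RPM, whereas miR-30b-5p at 87.9, 183 and 347 RPM was not, as it was 3.95-fold higher than BL_1 and 1.90-fold higher than BL_2.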

How the data were processed

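RNA was extracted with the mirVana kit and libraries were made with the NEXTFLEX Small RNA-Seq Kit v3. The authors trimmed reads, aligned them to the pig genome (Sscrofa10.2) and counted miRBase miRNAs with miRDeep2. The submitters' processing notes name cutadapt 1.10, Bowtie 1.1.1, SAMtools 1.2 and HTSeq 0.6.1p1. For reported miRNAs, raw read counts were deposited in 493 precursor rows, 1 of them occurring a second time. How reads that match several precursors or names were treated is not given in the sources used here. The deposited table of predicted loci holds read counts and miRDeep2 scores, which are another kind of value than a count per named miRNA. In 33 cells it gives 2 counts, of which the larger was used, and loci with the same counts in all 5 libraries were counted once in the total.

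Counts were summed per mature name. Depth was scaled by RPM, with TMM, DESeq2 1.42.0 size factors, a total without miR-371-5p and a total with predicted loci as other scales. edgeR 4.0.16 in R 4.3.3 compared 2 BL libraries with 1 ES-like library. The edgeR step was run on simulated data as a check, whose result is not given here and is not used to judge the p-values. The members and lists were chosen with earlier results of these data known. Named miRNAs are the 12 largest differences by the smaller of the 2 folds on each side (where each library on the higher side had 10 reads or more), the members of the lists, the 10 most abundant in ES-like cells and in BLs, and 3 with large disagreement between BL_1 and BL_2. Others are named as single exceptions, chosen after their values were seen. Medians of lists use a pseudocount of 1 read, and arm ratios a pseudocount of 0.5 reads per arm with at least 10 reads over both arms. Sums by shared seed and sequences were not analysed here.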

Additional observations from a re-analysis of the deposited data

Results flagged for a closer look

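The table of predicted loci, which no comparison above uses, holds 3 loci with large read counts in ES-like cells. The locus on chromosome 8 from 115200079 to 115200140 (Sscrofa10.2) had 27970 reads in BL_1, 497400 in BL_2 and 3980216 in ES-like cells, equal to 24.6%, 17.9% and 62.5% of the reported miRNA reads of those libraries. The locus from 115200553 to 115200622 on the same chromosome had 283, 9049 and 145229 reads. A locus on the unplaced sequence GL894213.2 from 15524 to 15591 had 283, 9049 and 145183 reads, almost the same counts. The start of the first locus differs by 1 base between libraries in the table. They were picked out because they carry a signal in data outside the reported miRNAs, and none of the differences was tested.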

How the results depend on the processing

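The counts of 112 higher and 55 lower miRNAs became 77 and 70 with TMM, 86 and 66 with DESeq2 size factors and also without miR-371-5p in the total, and 96 and 62 with predicted loci in the total. Under all 5 scales 77 were higher and 55 lower. Each of the other scales lowered every ratio of ES-like cells to BLs, and TMM did so most. The 77 are therefore the higher calls of TMM and the 55 the lower calls of RPM by construction. A minimum of 10 reads in each of the 3 libraries left 75 calls, 42 higher and 33 lower, from fewer miRNAs. A 4-fold limit left 111, with 69 higher, and any fold on the same side gave 85 lower. With 1 BL library left out, there were 192 to 219 calls, 125 to 152 of them higher and 67 to 67 lower, as one comparison is then enough for a call, and 18 to 18 lists had a median above 0. For the arms, 13 of 23 hairpins remained with at least 30 reads over both arms, from fewer hairpins, and 29 to 29 were called with 1 BL library left out. edgeR called 74 miRNAs, 37 higher and 37 lower, with at least 10 reads in each library, and DESeq2 called 55 higher (103 in all, with 51 adjusted p-values given as NA). The median of the miR-30 family turned to -0.0433 with TMM. None of the 110 named miRNAs with a call changed sign under the settings run. A call already needs both ratios past 2-fold, and the other scales moved the median log2 ratio only by -0.34 to -0.69. A change of sign was thus hardly possible, and its absence is no check of the calls. In edgeR, 22 adjusted p-values of named miRNAs no longer passed 0.05 under a setting. No paired analysis was possible because the labels number the BL libraries alone and ES-like cells have 1 library. An edgeR fit without 1 of the BL libraries has no residual degrees of freedom and was not run. Sums by seed were not run, as no mature sequences were at hand. The depth of BL_1 limits calls: 53 of the 80 miRNAs without a read there had no call.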
